A study of Mus musculus with 24 samples.

Results

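The genes described here mark the hepatic route of glucose synthesis: the enzymes Pcx, Pck1, Fbp1 and G6pc and the transcriptional coactivators Ppargc1a and Crtc2. These 6 genes were taken by name, and each was looked up by its symbol among the rows of the deposited liver table, a numbered suffix on a name being ignored. Of the 6 genes, 5 are among the 9049 listed and Ppargc1a is not. Livers came from male C57BL6/J mice, 2 months old by the labels, that were obtained at 7 weeks of age and kept on a reversed light cycle and a control diet of elemental amino acids (Con, 0.86% methionine), with food withheld during the lights-on phase. When food returned at lights off, mice stayed on Con or were moved to a methionine-restricted diet (MR, 0.17% methionine). The liver was dissected 3 h or 6 h after that. As the study lists them, neither diet held cystine, and MR held more glutamic acid than Con. Each of the 4 groups (Con at 3 h, MR at 3 h, Con at 6 h and MR at 6 h) holds 6 sequenced mice, 24 in all. Every mouse had thus been refed after its daily fast and no liver from before refeeding was analysed here, so that time on the diet, time since food returned and time of day cannot be told apart between 3 h and 6 h.

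Gluconeogenesis makes glucose from lactate, amino acids and glycerol, mostly in hepatocytes, and leaves glycolysis at its irreversible steps through dedicated enzymes. Pyruvate carboxylase (Pcx) makes oxaloacetate in mitochondria, phosphoenolpyruvate carboxykinase (Pck1) turns oxaloacetate into phosphoenolpyruvate in the cytosol, fructose bisphosphatase (Fbp1) makes fructose 6-phosphate, and the glucose 6-phosphatase catalytic subunit (G6pc) frees glucose for export. Glucagon, through cAMP, and glucocorticoids raise transcription of Pck1 and G6pc in fasting, and insulin lowers it after a meal. CRTC2 is a cAMP-responsive partner of the transcription factor CREB, and PGC-1alpha, the product of Ppargc1a, coactivates HNF4A, FOXO1 and nuclear receptors at these genes.

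Averaged over both diets, the RNAs of Pck1 and G6pc were higher at 6 h than at 3 h in these livers. Those of Fbp1, Pcx and Crtc2 were not distinguishable between the times. The averaged 6 h level was 2.67-fold that at 3 h for Pck1 and 1.42-fold for G6pc. That average was added after the values were seen, and 39.7% of all genes passed the adjusted test in it. Within a diet, Pck1 passed in Con alone, near the threshold, and G6pc in MR alone. For neither gene was the time effect shown to differ between the diets (limma adjusted p = 0.986 for Pck1 and 0.898 for G6pc). The G6pc level of the MR mice at 6 h was 1.56-fold that of the Con mice. This difference did not pass the test once adjusted over all genes. The groups did not overlap, as in 1.6% of all genes, and the closest mice held 384.5 (MR) and 384.4 units (Con). Under the authors' size factors that closest pair overlapped. No listed member passed between the diets at either time. Pck1 also stood out for its spread, which within a group reached 10.4-fold between the lowest and highest mouse.

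The promoters of the 2 genes that changed with time are shown because both are textbook targets of cAMP and nutrient signals. They are the RefSeq windows of GRCm38.p6 from 250 bases before to 50 bases after the annotated start, 300 bases each, for G6pc chr11:101367466-101367765 and for Pck1 chr2:173152823-173153122, both on the plus strand and written 5′ to 3′. Capitals mark every match, on either strand, to the 6 sets of letters searched.
G6pc: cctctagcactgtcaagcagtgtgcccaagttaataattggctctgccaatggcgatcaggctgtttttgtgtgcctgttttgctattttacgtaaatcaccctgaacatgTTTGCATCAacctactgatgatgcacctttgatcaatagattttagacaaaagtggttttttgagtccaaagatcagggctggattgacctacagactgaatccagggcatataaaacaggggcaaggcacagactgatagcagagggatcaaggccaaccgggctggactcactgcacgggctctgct
Pck1: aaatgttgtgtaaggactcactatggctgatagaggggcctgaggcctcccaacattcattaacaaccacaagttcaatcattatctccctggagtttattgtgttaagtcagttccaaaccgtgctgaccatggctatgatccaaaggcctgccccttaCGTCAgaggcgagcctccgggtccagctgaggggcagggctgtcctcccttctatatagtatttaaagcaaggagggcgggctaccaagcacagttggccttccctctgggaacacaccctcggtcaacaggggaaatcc
The letters searched were TGACGTCA (the full cAMP response element, CRE), TGACG (a CRE half-site, contained in the full element), GTAAACA (FOXO), TGATGNAAN (the C/EBP and ATF site of amino acid response elements), AGAACA (a glucocorticoid receptor half-site) and CAAAGTCCA (HNF4). The Pck1 window held 1 match, CGTCA from -90 to -86 relative to the start, which is the CRE half-site on the opposite strand. Of the 32851 promoters in the same table, 20.8% hold this half-site on either strand. The G6pc window held TTTGCATCA from -139 to -131, a match to TGATGNAAN on the opposite strand, letters that 3.95% of the promoters hold. Ppargc1a had a CRE half-site from -49 to -45, and the windows of Fbp1 and Pcx, which has 2 listed promoters, held none of the letters. For comparison, 1.79% of all windows hold the full CRE, 3.65% the FOXO letters, 19.0% the glucocorticoid half-site and 0.475% the HNF4 letters. A match is only a run of letters, and none of these was measured for binding.

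Values below are units of a rounded score, with library totals of 991702 to 995314, rescaled by TMM (a trimmed mean of log ratios between libraries). Sequencing covered transcript 3′ ends, and levels are compared between mice. Between genes they serve only to match genes of like level and to place low genes. Any division by transcript length is not given, which limits that match. Differences are log2 fold changes on log2 of the scaled value plus 1, with their standard error (SE). Hepatocyte markers summed to between 134700 and 183200 units per library. None of 8 markers of kidney proximal tubule, another site of these enzymes, was listed, and the filter on genes is not given. Of 12 exocrine pancreas markers 9 were listed, and they summed to 1675 units in mouse m4223 (MR at 3 h) against at most 47.5 in any other library. Of 7 adrenal cortex markers 4 were listed, and they summed to 461 units in m4214 (MR at 6 h) against at most 4.98 elsewhere. Mouse m4238 (Con at 6 h) had the lowest summed pericentral hepatocyte markers, 4563 units, and the highest summed Kupffer cell markers, 911 units. It also had the lowest Pcx of all mice. Where a call was lost without these 3 libraries, the adjusted p without them is given beside it.

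**Figure D1:**
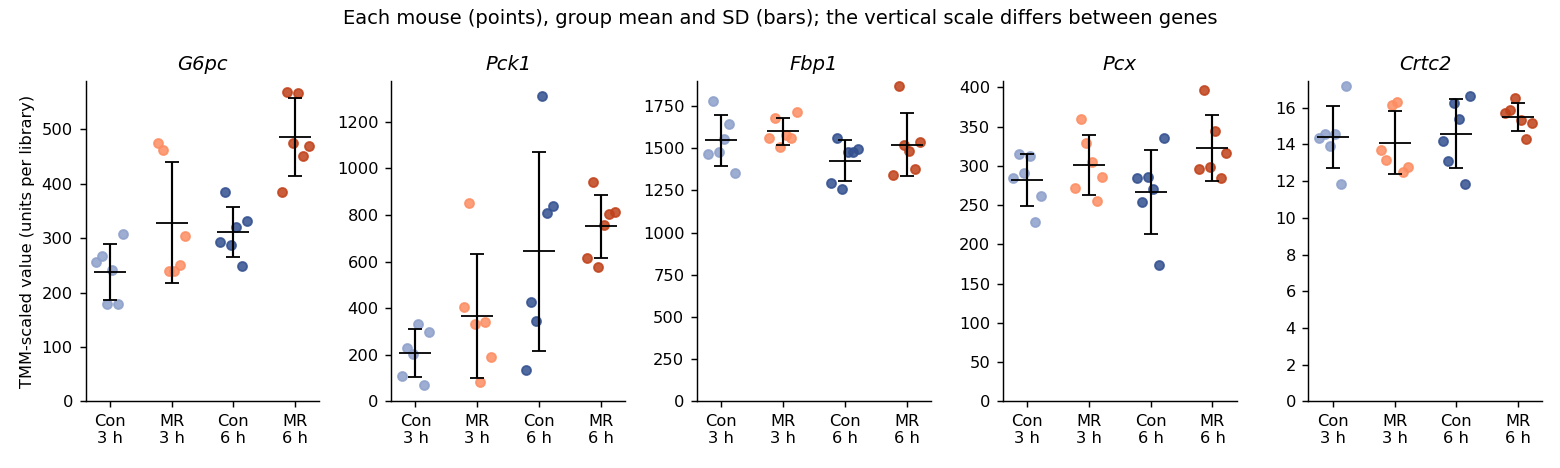
TMM-scaled value (units) of each listed member in each mouse (points), by group, with the group mean and SD (bars, n = 6); the vertical scale differs between genes. The 6 MR mice at 6 h hold G6pc values from 384.5 to 569, just above the highest Con mouse at 6 h (384.4), while Pck1 runs from 134 to 1313 among the Con mice at 6 h.

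Pcx, at the entry of the pathway, lies on chromosome 19 of GRCm38 from 4510472 to 4621752 on the plus strand. At 3 h the Con mice held 282 ± 33.0 units (SD, n = 6) and the MR mice 301 ± 38.5 units. At 6 h it was 267 ± 53.6 units in Con and 323 ± 41.8 units in MR. The Con mice at 6 h ran from 173 (m4238) over a median of 277 to 336 units, and the MR mice at 6 h from 285 over a median of 308 to 397 units, so that the groups overlapped and 2 MR mice lay above all Con mice. MR against Con at 6 h gave 0.29 in log2 (SE 0.12, limma adjusted p = 0.288), with an exact permutation p of 0.0628 over the mice. Without m4238 this log2 fold change was 0.17, and without the 3 libraries that stood apart the adjusted p was 0.571. At 3 h the log2 fold change between the diets was 0.09 (adjusted p = 0.881). Between 6 h and 3 h it was -0.10 in Con and 0.10 in MR, with adjusted p of 0.612 and 0.581.

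Pck1, which commits oxaloacetate to the route, lies on chromosome 2 from 173153048 to 173159273 on the plus strand. In Con at 3 h the mice ran from 69.1 (m4220) over a median of 215 to 334 units (m4218). In MR at 3 h they ran from 81.7 (m4210) over a median of 336 to 853 units (m4208). In Con at 6 h they ran from 134 (m4221) over a median of 616 to 1313 units (m4234). In MR at 6 h they held a narrower range, from 576 over a median of 781 to 943 units. The lowest MR mouse at 6 h lay above the highest Con mouse at 3 h, and every other pair of groups overlapped. Within the diets, 5 of the 6 Con mice at 6 h lay above every Con mouse at 3 h, and 1 of the 6 MR mice at 6 h lay above every MR mouse at 3 h. In bulk liver, more RNA per hepatocyte and more hepatocytes making it cannot be told apart.

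Pck1 was 2.81-fold higher at 6 h than at 3 h in Con, or 1.49 in log2 (SE 0.52, 95% confidence interval 0.42 to 2.56), and this passed the test (adjusted p = 0.0454 from limma over 9049 genes; exact permutation p = 0.0368). It was the only listed member past the threshold in this comparison, in which 9.23% of all genes were called higher and 10.4% lower. In MR the difference was 2.54-fold, or 1.35 in log2 (95% confidence interval 0.28 to 2.42), which missed the threshold (adjusted p = 0.0552; exact permutation p = 0.013). The call in Con was near the threshold: refits that left out 1 mouse gave log2 fold changes from 1.21 (without m4220) to 1.87 (without m4221), and the call held in 8 of these 24 refits (those without m4204, m4208, m4210, m4218, m4221, m4223, m4231 or m4233), with an adjusted p of up to 0.117 (without m4234). Without the 3 libraries that stood apart it was 0.0971. In MR the adjusted p ran from 0.0189 (without m4208) to 0.147 (without m4210), and 4 of the 24 refits passed (those without m4208, m4220, m4221 or m4234). The mean of the time effects in both diets, a comparison added after the values were seen, was 1.42 on the log2 scale (SE 0.36, adjusted p = 0.00368), and it passed under each of its 32 alternatives, with adjusted p from 0.000583 to 0.016. Over that mean 19.5% of all genes were called higher and 20.1% lower.

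Between the diets Pck1 was not distinguishable. The log2 fold change of MR against Con was 0.68 at 3 h (SE 0.52, 95% confidence interval -0.39 to 1.75, adjusted p = 0.806) and 0.54 at 6 h (-0.53 to 1.61, adjusted p = 0.644), both from limma, with exact permutation p of 0.26 and 0.338. Leaving out 1 mouse moved the value at 3 h between 0.37 (without m4208) and 1.05 (without m4210), and that at 6 h between 0.15 (without m4221) and 0.81 (without m4234), and none of these passed. Both intervals reach past 1.42, its mean time effect, and both include 0, so neither a diet effect of that size nor none is excluded. The difference between the diet effects at the times was -0.14 (SE 0.73, adjusted p = 0.986).

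Fbp1, which takes fructose 1,6-bisphosphate to fructose 6-phosphate, lies on chromosome 13 from 62864753 to 62888282 on the minus strand and held the steadiest levels of the enzymes. Its group values were 1547 ± 150 units (SD, n = 6) in Con and 1602 ± 79.2 units in MR at 3 h, and 1427 ± 121 units in Con and 1521 ± 187 units in MR at 6 h. Mice ran from 1257 (m4231, Con at 6 h) to 1868 units (m4219, MR at 6 h), and every pair of groups overlapped. The log2 fold changes between the diets were 0.05 at 3 h and 0.09 at 6 h, and those between the times -0.12 in Con and -0.08 in MR. None passed (adjusted p from 0.315 to 0.898, limma). The mean of the time effects was -0.10 (SE 0.06, adjusted p = 0.164). Without m4219, the mouse with the highest Fbp1, it was -0.13 with an adjusted p of 0.0454, the sole alternative under which Fbp1 was called.

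G6pc, the last enzyme of the route, lies on chromosome 11 from 101367561 to 101377903 on the plus strand. In Con at 3 h the mice ran from 178 (m4217) over a median of 250 to 307 units (m4233). In MR at 3 h 4 mice lay between 239.9 and 303 units and the remaining 2 at 462 (m4208) and 475 units (m4204). In Con at 6 h they ran from 248 (m4238) over a median of 307 to 384.4 units (m4222). In MR at 6 h they ran from 384.5 (m4214) over a median of 472 to 569 units (m4219), and all 6 lay above all 6 Con mice at 6 h, the closest pair by 0.1 units. In the size-factor table of the authors the same closest pair overlapped, 386 against 387 units. The order of the group means was Con at 3 h (239 ± 51.3 units), Con at 6 h (311 ± 46.3 units), MR at 3 h (328 ± 111 units) and MR at 6 h (486 ± 71.3 units), and Con at 6 h and MR at 3 h, neighbours in that order, lay closer than their spread.

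G6pc rose 1.53-fold between 3 h and 6 h in MR, or 0.62 in log2 (SE 0.17, 95% confidence interval 0.26 to 0.97, adjusted p = 0.00948 from limma; exact permutation p = 0.0281). This call held under each of the 33 alternatives, with log2 fold changes from 0.54 to 0.73. It was the only listed member called in this comparison, in which 13.9% of all genes were higher and 14.2% lower. In Con the difference was 1.32-fold, or 0.40 in log2 (adjusted p = 0.111; exact permutation p = 0.0325). The mean of both time effects was 0.51 (SE 0.12, adjusted p = 0.00205). The time effect in MR was not shown to differ from that in Con: the difference between them, which is the same quantity as that between the diet effects, was 0.22 (SE 0.24, adjusted p = 0.898).

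The mean G6pc level was higher in MR than in Con at both times, without passing over all genes. At 6 h the log2 fold change was 0.64 (SE 0.17, 95% confidence interval 0.29 to 1.0), with p = 0.00112 before and 0.0841 after adjustment by limma, and the exact permutation test over the 12 mice gave 0.00216, the smallest value it can give. The adjusted p ran from 0.0271, when the fit held only the 12 libraries compared, to 0.198, without the 3 libraries that stood apart, and that first setting was the only one of 33 that passed. Over all genes 0.608% were called higher and 0.133% lower in MR at 6 h, and 1.6% had groups that did not overlap. At 3 h the log2 fold change was 0.42 (SE 0.17, adjusted p = 0.697; exact permutation p = 0.119), with 2 MR mice above all Con mice, and it was 0.31 without m4204. In that comparison limma called 0% of all genes, and its smallest adjusted p was 0.553. Of the 9049 genes 603 had an unadjusted p under 0.05, and 0.199% had groups that did not overlap. The mean of both diet effects was 0.53 (SE 0.12, adjusted p = 0.0545), where 0.298% of all genes passed, and it passed in 4 of its 32 alternatives, 3 of which left out 1 mouse (m4210, m4216 or m4233). Taking the listed members as a group, 0 of 5 passed between the diets at 3 h, 0 of 5 at 6 h, and 0 of 5 in the interaction, in which 0.0663% of all genes passed. Only G6pc at 6 h had groups that did not overlap between the diets, and between the times no listed member did, against 6.09% of all genes in Con and 15.5% in MR.

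**Figure D2:**
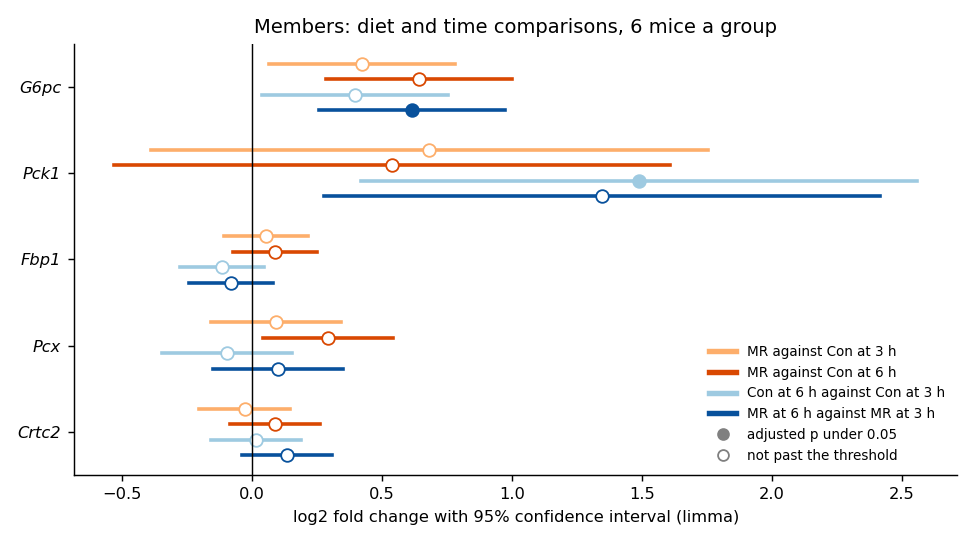
Log2 fold change (limma, on log2 of the scaled value plus 1) with its 95% confidence interval for each listed member in the diet comparisons (orange) and the time comparisons (blue), 6 mice a group; filled points have an adjusted p under 0.05. Pck1 in Con (1.49) and G6pc in MR (0.62) are the filled points, and the intervals of Pck1 are the widest.

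Crtc2, a cAMP-responsive coactivator of CREB, lies on chromosome 3 from 90254163 to 90264125 on the plus strand. Its group values were 14.4 ± 1.71 units (SD, n = 6) in Con and 14.1 ± 1.70 units in MR at 3 h, and 14.6 ± 1.88 units in Con and 15.5 ± 0.752 units in MR at 6 h. Mice ran from 11.8 (m4220, Con at 3 h) to 17.2 units (m4233, Con at 3 h), so the whole spread of Crtc2 lay within 1 group. Log2 fold changes ran from -0.03 (MR against Con at 3 h) to 0.13 (MR at 6 h against MR at 3 h), none passed (adjusted p from 0.259 to 0.948, limma), and the 95% confidence interval of the change with time in MR, the widest departure from 0, was -0.04 to 0.31. CRTC2 is known to be controlled by phosphorylation and its place in the cell, which RNA does not report. Ppargc1a lies on chromosome 5 from 51454250 to 51567726 on the minus strand. It was not among the listed genes, whose lowest mean over the 24 libraries was 2.95 units, and no value is given for it.

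Mice of the same group differed more in Pck1 than in nearly any other gene of like level. Its SD within groups, pooled over the 4 groups, was 0.934 on the log2 scale, the highest but 1 of 384 genes with a mean within 2-fold of its own, whose median was 0.156. Over all 9049 genes it ranked 39. The spread was unequal between groups: the highest mouse over the lowest was 4.83-fold in Con at 3 h, 10.4-fold in MR at 3 h, 9.8-fold in Con at 6 h and 1.64-fold in MR at 6 h. G6pc had an SD of 0.32, rank 729 over all genes and 56 among the 536 of like level, whose median was 0.154. Pcx had 0.222, rank 1928 over all and 146 among 604 of like level (median 0.148). Crtc2 had 0.147, rank 4890 over all and 1880 among 3854 (median 0.146). Fbp1 had 0.131, rank 5961 over all and 89 among 124 (median 0.173).

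**Figure D3:**
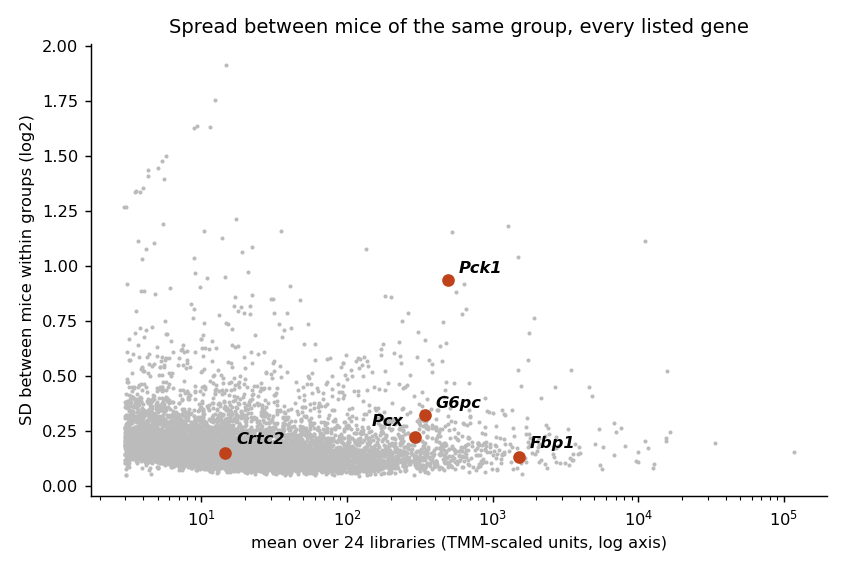
Each of the 9049 listed genes (grey) by its mean over the 24 libraries in TMM-scaled units (log axis) and its SD between mice within groups on the log2 scale, with the 5 listed members in red. Pck1 lies at 0.934, far above the grey band at its level, and the others lie between 0.131 and 0.32.

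Whether a mouse with high Pck1 also had high G6pc was asked on deviations from the group means in all 24 mice. Pearson's r was 0.457 (permutation p = 0.0542, adjusted over the 10 pairs of members 0.225) and Spearman's rho was 0.435 (permutation p = 0.0565, adjusted 0.283), so the relation did not pass. Without m4204 and m4208, the mice farthest out in G6pc and both MR at 3 h, r was 0.336. Within groups r was 0.546 in Con at 3 h, 0.661 in MR at 3 h, 0.0532 in Con at 6 h and 0.584 in MR at 6 h, on 6 mice each. Among the other pairs the highest value was that of Pcx and Crtc2 (r = 0.584, permutation p = 0.00769, adjusted 0.0769), which fell to 0.383 without m4238 and m4241. None of the 10 pairs passed after adjustment.

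**Figure D4:**
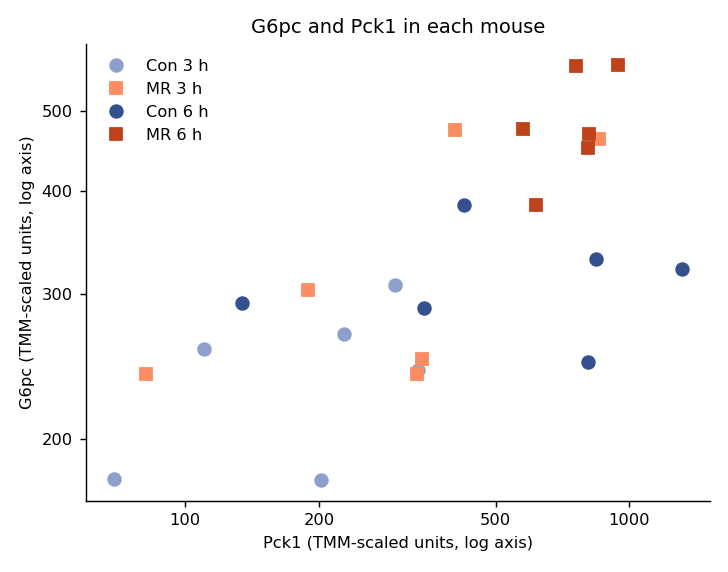
G6pc against Pck1 in each of the 24 mice, both in TMM-scaled units on log axes, Con as circles and MR as squares, pale at 3 h and dark at 6 h. Con mice at 6 h reach Pck1 values up to 1313 units with G6pc of at most 384.4, and the MR mice at 6 h sit together at the top right.

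The genes whose levels followed each member most closely over the 24 libraries are given as a description, since all share the same libraries and the times themselves. For Pck1 they were Dock1 (r = 0.839), Cog5 (0.826) and Cln8 (0.798), and the lowest was Tmem261 (-0.835). For G6pc they were Gpbp1l1 (0.802), Xpot (0.773) and Cep63 (0.767), and the lowest was Etnk2_1 (-0.799). For Fbp1 they included Tkfc (0.757), a kinase of fructose breakdown, and Iffo2 (0.755), and the lowest was Zfp36 (-0.78). For Pcx they were the cytochromes P450 Cyp2d10 (0.955) and Cyp2d22 (0.897) and Smoc1 (0.898), and the lowest was 4933434E20Rik (-0.876). For Crtc2 they were Mug1 (0.768), Cyp4f17 (0.761) and Trpc4ap (0.761), and the lowest was Smco4 (-0.826). With the group means removed, r was 0.65 for Gpbp1l1 with G6pc, 0.7 for Dock1 with Pck1, 0.731 for Tkfc with Fbp1, 0.948 for Cyp2d10 with Pcx and 0.793 for Mug1 with Crtc2.

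Of 21 other enzymes and carriers of the route 19 were listed. In Con 0 rose and 2 fell with time and 17 did not pass, with 15 of the 19 log2 fold changes below 0 and a median of -0.08 against -0.01 over all genes. In MR 1 rose and 1 fell, with a median of -0.01 against -0.01. The share called, 10.5% in each diet, stood beside 19.6% of all genes in Con and 28.1% in MR. Slc37a4, which carries glucose 6-phosphate to G6pc inside the endoplasmic reticulum, fell in both diets: its median went from 202 to 119 units in Con and from 233 to 133 units in MR between 3 h and 6 h. The log2 fold changes were -0.72 (SE 0.13, adjusted p = 0.000539) and -0.77 (adjusted p = 0.000116, limma), and in MR the groups did not overlap. Pck2, the mitochondrial carboxykinase, rose in MR by 0.59 in log2 (adjusted p = 0.0381) from a mean of 2.47 to 4.38 units, near the low end of the table, and it was past the threshold in 17 of the 24 refits without 1 mouse. Eno1_1, the table's row for the enolase Eno1, fell in Con by 0.27 on the log2 scale (adjusted p = 0.025, 0.0548 without the 3 libraries that stood apart), held in 20 of those refits. No gene of this list passed between the diets at either time.

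Of 12 enzymes and regulators of the opposing glycolytic steps 11 were listed. With time 3 fell, 0 rose and 8 did not pass in Con (median -0.19), and 4 fell, 1 rose and 6 did not pass in MR (median -0.05), a share called of 27.3% and 45.5% beside the 19.6% and 28.1% of all genes. The 3 that fell in both diets belong to a family that makes and removes fructose 2,6-bisphosphate, which activates phosphofructokinase and inhibits Fbp1. Pfkfb1, the liver form, had a median of 60.1 units in Con at 3 h and 38.3 units in Con at 6 h, and of 65.6 and 33.8 units in MR. Its log2 fold changes were -0.58 (adjusted p = 0.00651) in Con and -0.99 (adjusted p = 1.9e-05, limma) in MR, where the times did not overlap. Pfkfb3 fell by 0.60 and 1.04 and Pfkfb2 fell by 0.41 and 0.35 on the log2 scale in Con and MR. The call of Pfkfb3 in Con held in 17 of the 24 refits without 1 mouse, and its adjusted p was 0.0649 without the 3 libraries that stood apart. Pfkl, the liver phosphofructokinase, rose in MR by 0.27 in log2 (adjusted p = 0.0022). Of this list too none passed between the diets.

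Of 18 genes that bring lactate, amino acids and glycerol into the route 17 were listed. With time 4 rose and 1 fell in Con, where 9.23% of all genes were called higher and 10.4% lower, and the median was 0.07. In MR 8 rose and 0 fell, where 13.9% of all genes were called higher and 14.2% lower, and the median was 0.23. Pdk4, the kinase that shuts pyruvate dehydrogenase and so spares pyruvate, rose from a median of 6.8 to 15.9 units in Con and from 5.36 to 19.4 units in MR (log2 fold changes of 1.28 and 1.73, adjusted p = 0.0024 and 6.4e-05, limma). Aqp9, the glycerol channel of the hepatocyte, rose by log2 fold changes of 0.31 and 0.49, and Glud1, glutamate dehydrogenase, by 0.19 and 0.34, although in Con their calls held in 17 and 18 of the 24 refits. Slc38a4, a carrier of neutral amino acids, rose by 0.34 in Con, where the call held in 19 refits, and by 0.41 in MR. In Con the gene that fell was Gpt, alanine aminotransferase (log2 fold change -0.27, adjusted p = 0.0485, 0.0751 without the 3 libraries that stood apart), a call that held in 8 refits. Beside these, Gpt2, Tat and Gpd1 rose in MR, by 0.33, 0.71 and 0.30, the last held in 16 refits (adjusted p = 0.0537 without the 3 libraries), and Slc38a4 in MR, Gpt, Gpt2, Tat and Gpd1 were named after their values were seen. Slc38a2 completes the 8 genes. The list holds 1 gene that passed between the diets: Slc38a2, another carrier of neutral amino acids, whose MR mice at 6 h ran from 51.9 to 90 units and whose Con mice ran from 31 to 42.7 units, a difference of 0.87 in log2 (adjusted p = 9.11e-05). It is known to be induced when amino acids run short.

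Of the glucagon, cAMP and CREB arm 22 of 25 genes were listed, and those called with time went both ways. In Con 2 rose and 2 fell (median 0.00), 18.2% of the listed genes beside 19.6% of all genes, and in MR 6 rose and 2 fell (median 0.01), 36.4% beside 28.1%. Prkaca, the catalytic subunit of protein kinase A, rose by a log2 fold change of 0.37 in Con (adjusted p = 0.00348) and 0.41 in MR (adjusted p = 0.000855, limma), and Prkar1a, a regulatory subunit that restrains it, by 0.15 and 0.14, the first with an adjusted p of 0.0561 without the 3 libraries that stood apart. Creb1, CREB itself, fell by 0.20 and 0.28 on the log2 scale, the first of which held in 13 of the 24 refits, and Creb3l3, a liver factor of the same family, fell by 0.24 and 0.20, the second of which held in 18. The values of Prkar1a and Creb3l3 in MR were named after they were seen. In MR, Crem rose by a log2 fold change of 0.38 and Prkar2a by 0.20. Sik1, a kinase that phosphorylates CRTC2 and is itself induced by cAMP, rose in MR by 0.47 (adjusted p = 0.0275) and was named after its value was seen, as was Crebbp (0.26, adjusted p = 0.0332). Those calls held in 20 and 18 refits. No gene of this arm passed between the diets.

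Of the insulin and FOXO1 arm all 15 genes were listed, and 1 rose in Con and 1 rose and 1 fell in MR, 6.67% and 13.3% beside 19.6% and 28.1% of all genes. The gene that rose in both was Igfbp1, an insulin-repressed target of FOXO1, from a median of 8.84 to 38.8 units in Con (log2 fold change 1.89, SE 0.47, adjusted p = 0.00652) and from 9.31 to 74.1 units in MR (2.84, adjusted p = 9.02e-05, limma). Akt1, an insulin-activated kinase, fell in MR by 0.22 on the log2 scale (adjusted p = 0.0169). Among factors that act with PGC-1alpha or at these promoters 21 of 24 were listed. In Con 3 rose and 2 fell, with a median of -0.06, and in MR 3 rose and 1 fell, with a median of 0.05. The share called was 23.8% in Con and 19% in MR, beside 19.6% and 28.1% of all genes. Nr0b2, the repressor SHP, rose from a median of 16.4 to 48.3 units in Con and from 18.2 to 57.4 units in MR, log2 fold changes of 1.47 and 1.58 (adjusted p = 0.000635 and 0.000147). Esrra, a nuclear receptor coactivated by PGC-1alpha, fell from a median of 37.7 to 20.5 units in Con (log2 fold change -0.84, adjusted p = 0.000138), with no overlap, and in MR its log2 fold change was -0.37, a call that held in 10 of the 24 refits (adjusted p = 0.0609 without the 3 libraries that stood apart). Klf9 rose in Con by 0.49, Gabpa by 0.28 in Con and 0.20 in MR, and Kat2b by 0.22 in MR, the last held in 19 refits. Cebpa fell in Con by 0.30 on the log2 scale, held in 21 refits (adjusted p = 0.0534 without the 3 libraries), and was named after its value was seen.

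Of 14 fasting and glucocorticoid response genes 12 were listed, and Pdk4, Igfbp1 and Tat among them are also in lists above. With time 3 rose and 0 fell in Con, with a median of 0.35, and 5 rose and 2 fell in MR, with a median of 0.69, while the median over all genes was -0.01 in both. The share called was 25% in Con and 58.3% in MR, beside 19.6% and 28.1% of all genes. Sgk1, a glucocorticoid-induced kinase, rose in MR by 0.76 in log2 (adjusted p = 0.000131, limma), and in Con by 0.37 (adjusted p = 0.0499, 0.14 without the 3 libraries that stood apart), a call that held in 6 of the 24 refits. Tat, tyrosine aminotransferase, rose in MR by 0.71 (adjusted p = 0.00346). The genes that fell in MR were Cpt1a, which admits fatty acids to mitochondria (log2 fold change -0.55), and the clock gene Per1 (-0.56, held in 11 refits, adjusted p = 0.0701 without the 3 libraries), and Tat, Cpt1a and Per1 were named after their values were seen. Fgf21, a liver hormone known to respond to fasting and to shortage of amino acids, was the list's gene past the threshold between the diets at 6 h: its MR mice ran from 40.2 to 158 units and its Con mice from 4.16 to 25.4 units, a difference of 3.20 in log2 (SE 0.64, adjusted p = 0.0168). Without the 3 libraries that stood apart its adjusted p was 0.0884. These lists were drawn up with earlier results of these data known, and their counts describe the lists alone.

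**Figure D5:**
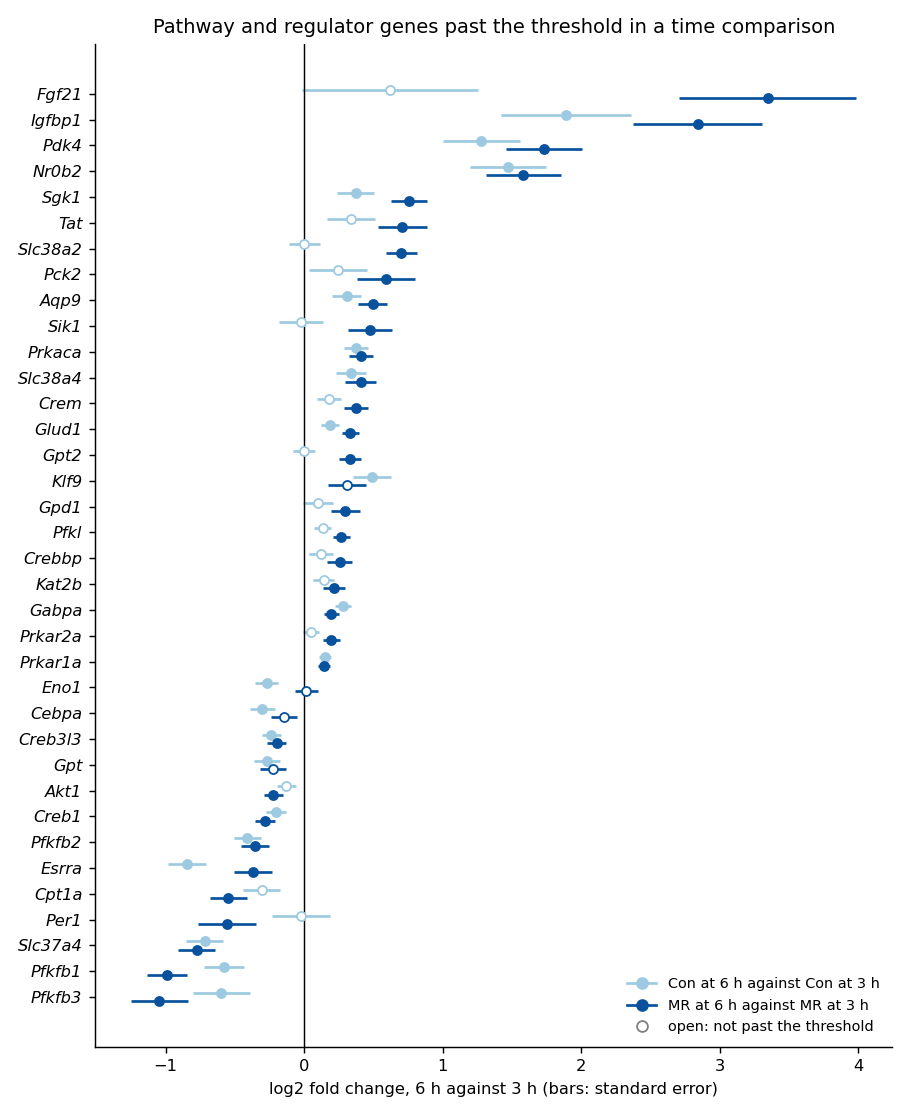
Log2 fold change between 3 h and 6 h in Con (pale) and MR (dark), with its SE, for 36 pathway and regulator genes, members left out, that passed the threshold in at least 1 of the time comparisons; open points did not pass in that diet. Fgf21, Igfbp1, Pdk4 and Nr0b2 lie farthest to the right, and Pfkfb3, Pfkfb1 and Slc37a4 farthest to the left in MR.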

How the data were processed

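Liver RNA of 24 mice was measured by Lexogen QuantSeq 3′ sequencing and mapped and counted by the authors with the Lexogen Quantseq pipeline and CLC Genomics Workbench. GRCm38 is the build in the submitters' processing notes. The study describes a minimum TPM for its own enrichment analysis. For the deposited tables, the filter on genes and any division by transcript length are not given in sources used here. One deposited table called raw counts holds whole numbers that sum to 991702 to 995314 per library. From these near-equal totals it was read here as a scaled and rounded score, which no source used here states. A second deposited table holds this score divided by 1 size factor per library. On that reading read depth cannot be recovered, so no counting interval is given and precision rests on the spread between mice.

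Groups were taken from the sample titles. The score was scaled by TMM (trimming 30% by log ratio and 5% by mean), and log2 of the scaled value plus 1 was fitted with limma 3.58.1 in R 4.3.3 (statmod 1.5.0): 1 mean per group over 24 libraries, mean-variance trend, robust prior, Benjamini-Hochberg over 9049 genes, threshold 0.05. Fold changes understate those of low genes. Each member also had an exact two-sided permutation test over the 924 divisions of 12 mice, 20 tests in all, unadjusted, whose smallest p is 0.00216. Correlations among members used deviations from group means, with 100000 permutations within groups. Python 3.11.15 (numpy 2.4.6, pandas 2.3.3) was used elsewhere. On simulated data with known changes the fit was checked first. The study used a count model. None was run here, because the values were read as a scaled score and not as counts.

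Named were all 6 members, up to 4 genes with the smallest p among those past the threshold per list and comparison, and per member the 3 genes most and the 1 least correlated with it; others are said to be so, and the values of some genes that meet this rule are not reported here. The members, lists and libraries that stood apart were chosen with earlier results of these data known. Coordinates are GENCODE vM21 (GRCm38); promoters are RefSeq GRCm38.p6, with 5 of the 6 members in that table. Alternatives were 2 other scalings, 2 pseudocounts, a filter, 2 variance models, fits to the compared libraries alone, and leaving out each mouse or 3 libraries; the mean diet and mean time effects were added after the values were seen. Replicates are separate mice, with no batch given in the labels and no shared replicate numbers.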

Additional observations from a re-analysis of the deposited data

Results flagged for a closer look

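Among the 5 listed members in the 4 groups, 1 mouse stood apart by the gap between it and its group: m4219 (MR at 6 h) had 1868 units of Fbp1, while the other 5 mice of its group ran up to 1536 units. The gap was 0.631 of the range of the group, just above Dixon's 95% critical value for 6 samples. Chance gives such a gap in about 1 of 20 groups, and 20 groups were looked at. The same mouse had the highest Pcx, Pck1 and G6pc of its group, 397, 943 and 569 units.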

How the results depend on the processing

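The rise of G6pc in MR and the mean time effects of G6pc and Pck1 passed under every alternative run. The time effect of Pck1 in Con was not past the threshold without TMM scaling (log2 fold change 1.48, adjusted p = 0.0516), with library weights (1.27, 0.0889), with the compared libraries alone (1.49, 0.0946) and without the 3 libraries that stood apart (1.35, 0.0971), and leaving out 1 mouse gave 1.21 to 1.87. That in MR passed with no trend and no robust prior (1.35, 0.0466), with library weights (1.37, 0.0239) and with the compared libraries alone (1.36, 0.0374), and leaving out 1 mouse gave 0.98 to 1.66. G6pc between the diets at 6 h passed with the compared libraries alone (0.64, 0.0271). Its mean diet effect passed with a minimum mean of 10 units (0.53, 0.0457), and leaving out 1 mouse gave 0.47 to 0.57. The cause of these shifts was not tested.

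Some values smaller than their SE, none of which ever passed, changed sign. Each is given with its range leaving out 1 mouse. Without TMM scaling this was the mean time effect of Pcx (-0.0169, range -0.0341 to 0.0547). With library weights it was the interaction for Pck1 (0.10, range -0.53 to 0.17) and Fbp1 (-0.0140, range -0.0272 to 0.0713). Without the 3 libraries it was Crtc2 between the diets at 3 h (0.00285, range -0.0803 to 0.0200) and Pcx with time in Con (0.0192, range -0.17 to 0.0192). Crtc2 with time in Con gave -0.0367 to 0.0656 leaving out 1 mouse. The mean time effect of Fbp1 kept its sign, at -0.13 to -0.0774, and passed without m4219 (limma adjusted p = 0.0454).

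The 67 genes called between the diets at 6 h became 116 with library weights, 42 with the compared libraries alone, 22 without the 3 libraries and 33 to 78 without 1 mouse. The 1774 called with time in Con became 1163 with the compared libraries alone. The 6 called in the interaction became 3 with a minimum mean of 10 units, with no trend, or with library weights, 2 without the 3 libraries and 3 to 8 without 1 mouse. The 27 called for the mean diet effect became 49 with library weights, 14 without the 3 libraries and 14 to 56 without 1 mouse. Of 56 values of other pathway genes past the threshold, none changed direction and 33 passed under every alternative.

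No paired analysis was possible because the groups share no replicate numbers. The rounding of the score leaves few steps for genes near its lower end, such as Pck2.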
